A study of Rattus norvegicus with 12 samples.

Results

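The interstitial collagens described here are 10 genes, Col1a1, Col1a2, Col3a1, Col5a1, Col5a2, Col5a3, Col6a1, Col6a2, Col6a3 and Col8a1, which encode chains of collagen types I, III, V, VI and VIII. They were chosen by gene name among the non-control probes of a rat expression array, where 10 of 35287 distinct names, and 15 of 41012 probes, were theirs. The arrays profiled left ventricle and whole blood of male Sprague-Dawley (CD) rats, 10 weeks old when dosing began (another label says 11 weeks). Treated rats were given amiodarone, an antiarrhythmic drug, by mouth at 300 mg/kg per day for 10 days, and control rats received the vehicle, 1% methylcellulose. Each tissue had 3 amiodarone pools and 3 vehicle pools of rats, with 1 array per pool. The number of animals in a pool is not listed, so the p-values measure the spread between pools.

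Collagens are trimers of alpha chains that are wound into a triple helix in the endoplasmic reticulum and secreted. Types I, III and V form the fibrils of the heart's interstitium, which fibroblasts deposit and which give the ventricular wall its tensile strength. Type VI forms beaded microfilaments near cell surfaces and type VIII forms networks, so the chains of these types are interstitial but not fibrillar.

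The array measured each transcript with probes of 60 bases. The following probes of fibrillar chains are shown because they let related chains be compared base by base. Their place within the transcript is not annotated in the deposited files. The capitals mark a run of 8 bases that the first 3 probes share.
Col1a1, first probe, chr10:83637903-83637962, plus strand: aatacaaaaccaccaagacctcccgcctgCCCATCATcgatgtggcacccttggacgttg
Col3a1, chr9:44317465-44317524, plus strand: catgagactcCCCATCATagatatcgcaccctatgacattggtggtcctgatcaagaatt
Col5a2, second probe, chr9:44375560-44375619, minus strand: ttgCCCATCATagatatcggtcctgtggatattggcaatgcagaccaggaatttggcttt
Col1a1, second probe, chr10:83637956-83638015, plus strand: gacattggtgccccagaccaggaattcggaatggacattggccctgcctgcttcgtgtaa
Positions are those of rat build rn4 in the deposited files. The Col3a1 and Col5a2 probes shared an unbroken run of 16 bases, and the second Col1a1 probe shared 13 bases with the Col5a2 probe. Whether each probe read only its own transcript was not tested.

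All 15 probes were well above background on all 6 heart arrays, and none was saturated. On heart arrays 21233 to 25032 of the 43379 spots passed the scanner's mark for being well above background, and the 75th percentile of signal was 111 to 163 in amiodarone pools and 113 to 175 in vehicle pools. Blood arrays differed by group, with 20625 to 21245 spots well above background and a 75th percentile of 56.8 to 87.5 in amiodarone pools, against 14459 to 15548 spots and 20.9 to 26.2 in vehicle pools. Levels below are log2 signals relative to each array's own 75th percentile, so 0 means a signal at that percentile. Levels of different probes are not comparable with one another, since probes differ in how strongly they bind. A feature here is a gene symbol, represented by its brightest probe, or a probe without a symbol.

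In the left ventricle, the collagens were lower after amiodarone. Of the 10 genes, 9 fell and 0 rose at an adjusted p below 0.05 in limma's moderated test, against 4.23% of 17467 tested features that fell, 4.33% that rose and 8.56% in both directions. The remaining gene, Col6a2, had a lower mean but did not pass. The median difference of the 10 genes was -1.38 on the log2 scale, against 0.02 over all features, whose 10th and 90th percentiles were -0.53 and 0.50. Every amiodarone pool lay below every vehicle pool for all 10 genes, an arrangement that 13.7% of features had. In bulk tissue, fewer collagen-producing cells and less collagen RNA per cell cannot be told apart.

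Col1a1 and Col1a2 encode the chains of type I collagen, the main fibrillar collagen of the heart. By its brightest probe (chr10:83638177-83638236), Col1a1 had levels of 4.21, 3.85 and 3.66 in amiodarone pools 1, 2 and 3, against 5.93, 6.21 and 5.97 in vehicle pools. The deposited signals behind these levels were 2052, 2348 and 1486 in amiodarone hearts, against 6906, 12995 and 8832 in vehicle hearts. The groups did not overlap on either scale, and the 3 vehicle pools lay close together on the log2 scale. Col1a1 fell by 2.13 (SE 0.18, 95% interval -2.55 to -1.71, adjusted p = 0.000989), to 22.8% of the vehicle level. The other Col1a1 probes, both printed above, gave differences of -1.93 and -1.89 (adjusted p = 0.00123 and 0.00125 in a fit with each probe as its own feature, where 7.41% of 20505 probes were called and 3.76% were lower). All 15 probes had amiodarone pools below vehicle pools.

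Col1a2 (chr4:29428206-29428265) had levels of 5.12, 5.05 and 5.06 in amiodarone pools, against 6.40, 6.77 and 6.41 in vehicle pools. The amiodarone pools were nearly equal, and the groups did not overlap. The gene fell by 1.45 (SE 0.15, adjusted p = 0.00229), to 36.7% of the vehicle level. Its other probe (chr4:29425301-29425360) read 1.89, 2.04 and 2.07 in amiodarone pools and 3.52, 4.15 and 3.57 in vehicle pools, a difference of -1.74 (adjusted p = 0.00324).

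Col3a1 encodes the only chain of type III collagen, which forms fibrils together with type I and is prominent in distensible tissues. Its levels were 4.88, 4.09 and 3.90 in amiodarone pools and 6.31, 6.84 and 6.65 in vehicle pools. Amiodarone pool 1 was the highest of the treated pools and vehicle pool 1 the lowest of the controls, and a gap remained between the groups. Col3a1 fell by 2.31 (SE 0.27, 95% interval -2.95 to -1.67, adjusted p = 0.00379), to 20.2% of the vehicle level.

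**Figure D1:**
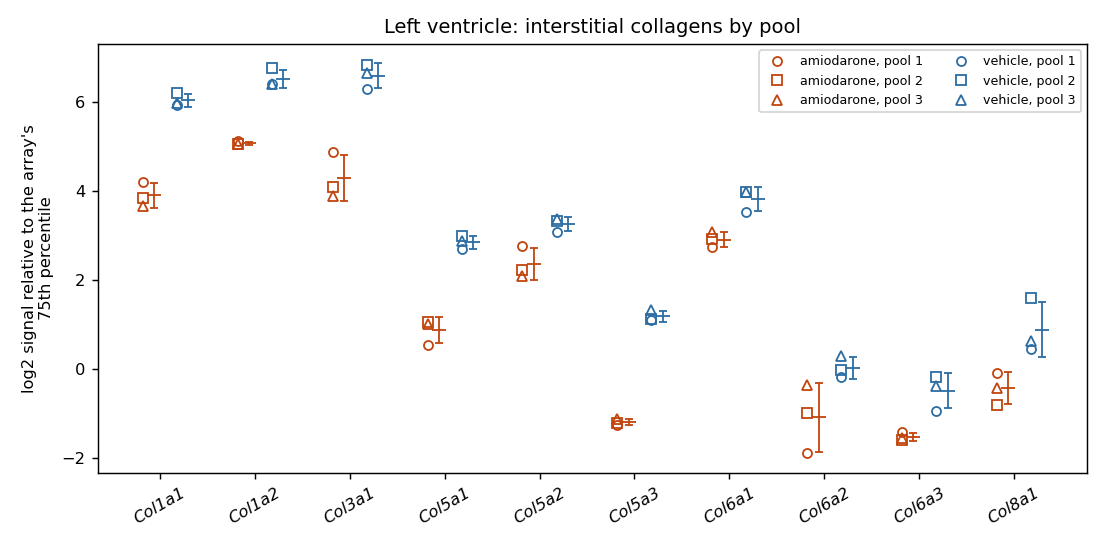
Level of each collagen in the left ventricle by its brightest probe (vertical axis, log2 signal relative to the array's 75th percentile) in the 3 amiodarone pools (left of each pair) and the 3 vehicle pools, with the mean and SD beside the points (n = 3). The groups do not overlap for any of the 10 genes, and Col6a2 has the widest spread in amiodarone pools (SD 0.77).

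Type V chains take part in starting fibrils and limiting their width. Col5a1, the chain present in most type V trimers, had levels of 0.54, 1.06 and 1.02 in amiodarone pools and 2.70, 2.99 and 2.87 in vehicle pools (chr3:6970910-6970969). The difference was -1.98 (SE 0.18, adjusted p = 0.00124), which left 25.4% of the vehicle level. A second Col5a1 probe (chr3:6960625-6962976, a range longer than the probe itself) read -1.58, -0.92 and -0.69 in amiodarone pools and 0.88, 1.14 and 1.17 in vehicle pools, a difference of -2.13 (adjusted p = 0.00325). On both probes amiodarone pool 1 was the lowest array and the groups were well apart.

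Col5a3, a less common type V chain, had one of the largest falls, close to that of Col3a1. Its levels were -1.25, -1.20 and -1.12 in amiodarone pools, against 1.10, 1.14 and 1.34 in vehicle pools (chr8:19789129-19789188). Both groups were tight, with an SD of 0.07 in amiodarone pools and 0.13 in vehicle pools, and the difference was -2.38 (SE 0.14, adjusted p = 0.000235), or 19.2% of the vehicle level. With normexp background correction, another way to remove local background, the difference was -1.46 (adjusted p = 3.79e-06), against -2.36 for Col3a1 in the same setting. Normexp here also added an offset of 50 to every signal, which shrinks the log2 differences of dim probes. Col5a3 was dim, with deposited signals of 46.7 to 70.9 in amiodarone hearts and 243 to 385 in vehicle hearts. The same limit holds for the normexp values below, and the part of the offset was not tested.

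Col5a2, the usual partner of Col5a1 in type V trimers, had one of the smallest differences. It read 2.77, 2.22 and 2.10 in amiodarone pools, against 3.08, 3.33 and 3.37 in vehicle pools (chr9:44375480-44375539). Amiodarone pool 1 came close to vehicle pool 1, but the groups did not overlap. The gene fell by 0.90 (SE 0.21, adjusted p = 0.0402), to 53.7% of the vehicle level. The second probe, printed above, read 2.54, 2.17 and 2.12 in amiodarone pools and 3.05, 3.29 and 3.23 in vehicle pools, with a difference of -0.92 (adjusted p = 0.0194).

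The 3 type VI chains assemble together into 1 trimer. Col6a1 (chr20:12337772-12337831) had levels of 2.74, 2.92 and 3.08 in amiodarone pools and 3.53, 3.99 and 3.98 in vehicle pools, and fell by 0.92 (SE 0.18, adjusted p = 0.0236). Col6a3 (chr9:89943801-89966500, again a range longer than the probe) had levels of -1.42, -1.59 and -1.55 in amiodarone pools and -0.93, -0.17 and -0.37 in vehicle pools, and fell by 1.03 (SE 0.21, adjusted p = 0.0269). For Col6a1 the pools of each group were close together, whereas for Col6a3 the vehicle pools were spread more widely (SD 0.39) than the amiodarone pools (SD 0.09). After normexp the Col6a3 difference was -0.53 (adjusted p = 0.0261).

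Col6a2 (chr20:12463646-12463705) had levels of -1.89, -0.99 and -0.35 in amiodarone pools and -0.17, -0.03 and 0.29 in vehicle pools. The amiodarone pools were spread over more than 1 log2 unit, and the highest of them lay just under the lowest vehicle pool. The difference was -1.11 (SE 0.36, 95% interval -1.95 to -0.26, adjusted p = 0.110), so the gene did not pass the threshold. It passed without amiodarone pool 3 (-1.47, adjusted p = 0.0364), with no scaling (-1.24, adjusted p = 0.0182) and after normexp, where the difference was -0.67 (adjusted p = 0.0277).

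Col8a1 encodes a chain of the network-forming type VIII collagen, which is known from vessel walls and cardiac fibroblasts. It had levels of -0.08, -0.79 and -0.41 in amiodarone pools and 0.45, 1.60 and 0.63 in vehicle pools (chr11:43733411-43733470). Vehicle pool 2 stood above the other vehicle pools by about 1 log2 unit. The gene fell by 1.32 (SE 0.32, 95% interval -2.08 to -0.57, adjusted p = 0.0487), to 40.0% of the vehicle level.

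The genes differed in how firmly they passed. Col1a1, Col1a2, Col3a1, Col5a1 and Col5a3 were called lower in each of 18 refitted alternatives of background correction, scaling, filtering, blocking or leaving out a pool. Calls of the other 4 were lost when single pools were left out, and under some other settings. Col6a1 lost it without amiodarone pool 2 or vehicle pool 2 or 3 (adjusted p = 0.0787, 0.0918 and 0.0982). Col6a3 lost it without amiodarone pool 2 or 3 or vehicle pool 2 or 3 (0.0628 to 0.104). Col5a2 lost it without any pool other than amiodarone pool 1 (0.0793 to 0.141), and Col8a1 without any of the 6 (0.0543 to 0.144). The difference stayed below 0 for all 10 genes in every one of these fits.

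**Figure D2:**
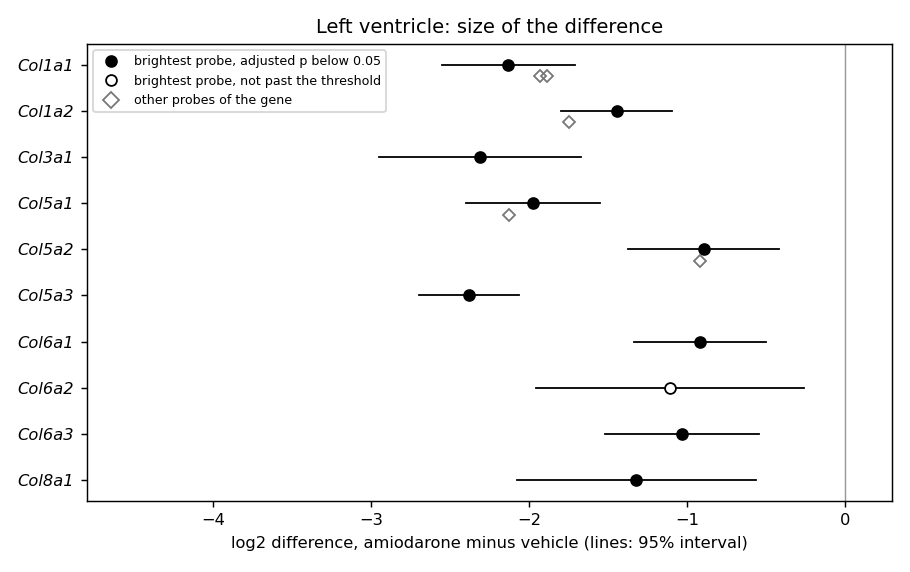
Log2 difference in the left ventricle, amiodarone minus vehicle (horizontal axis), for each collagen. Circles are the brightest probe with the 95% interval from limma (n = 3 pools per group), filled where the adjusted p is below 0.05, and diamonds are other probes of the gene. All 15 probes lie below 0, from -2.38 for Col5a3 to -0.90 for Col5a2.

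The heart arrays lay on 2 slides, each with both groups, so the difference could be read within each. Col1a1 differed by -2.04 on the first slide, which held pools 1 and 2, and by -2.31 on the second, which held pool 3. Col3a1 differed by -2.09 and -2.75, Col5a2 by -0.71 and -1.27, and Col6a2 by -1.34 and -0.65. Each of the 10 genes was lower after amiodarone on both slides. With slide as a block 7 genes were called, and Col5a2 (adjusted p = 0.0554) and Col8a1 (adjusted p = 0.0682) were not.

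Ranked from the largest fall among the 17467 features, Col5a3 stood at 62, Col3a1 at 67, Col1a1 at 85 and Col5a1 at 106. Col1a2 followed at 212, Col8a1 at 256 and Col6a2 at 380, with Col6a3 at 454, Col6a1 at 597 and Col5a2 at 627. The share of higher features among all calls was 50.6%, and it was 64.4% when arrays were scaled by their median and 30.6% without scaling, while the median of all features moved to 0.11 and -0.11.

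**Figure D3:**
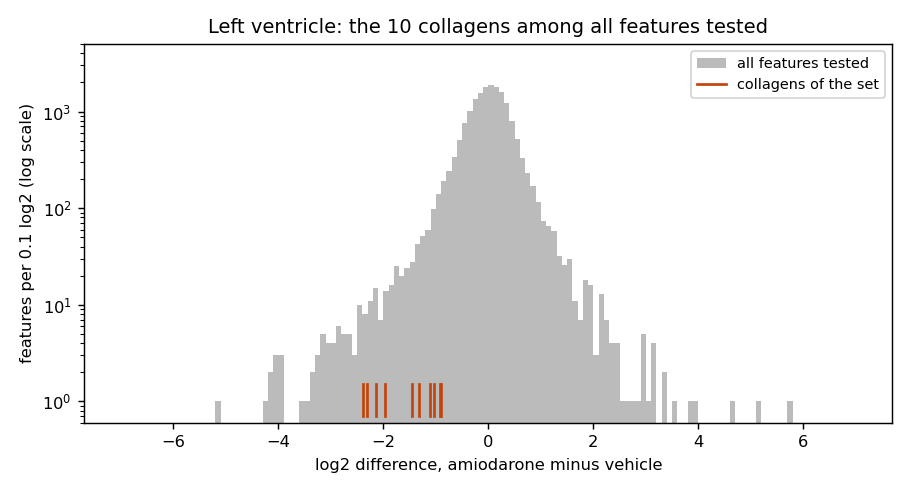
Distribution of the log2 difference, amiodarone minus vehicle, over all 17467 features tested in the left ventricle (horizontal axis; vertical axis, features per 0.1 log2 on a log scale), with the 10 collagens as short lines. The collagens lie between -2.38 and -0.90, below the 10th percentile of all features at -0.53.

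The vehicle pools kept a similar order across the genes, and the amiodarone pools did not. Vehicle pool 1 was the lowest vehicle pool for all 10 genes, and vehicle pool 2 was the highest for 7 of them. Among amiodarone pools, pool 1 was the highest for 6 genes and the lowest for 4. The share of all features with these pool orders was not counted. The 75th percentiles of signal on vehicle arrays 1, 2 and 3 were 113, 175 and 140, also lowest in pool 1 and highest in pool 2. Those of amiodarone arrays were 111, 163 and 117. Whether array brightness had a part in the pool orders was not tested. Averaged over the 10 genes after centring each on its mean, amiodarone pools 1, 2 and 3 stood at -0.73, -0.83 and -0.76 and vehicle pools at 0.54, 0.97 and 0.82. Pearson's r of single genes with this mean profile over the 6 arrays was 0.76 for Col6a2 and 0.91 to 0.99 for the others. These values are descriptions, since each gene is part of the mean and the points share the difference between groups.

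Whether chains that assemble together fell by the same amount was read from their ratios within each array. The ratio of Col1a1 to Col1a2, centred on its mean over the 6 arrays, was -0.08, -0.38 and -0.57 in amiodarone pools and 0.36, 0.28 and 0.39 in vehicle pools. The ratio of Col5a1 to Col5a2 was -1.28, -0.21 and -0.13 in amiodarone pools and 0.57, 0.60 and 0.45 in vehicle pools. Neither ratio overlapped between groups. They differed by -0.69 for Col1a1 to Col1a2 and by -1.08 for Col5a1 to Col5a2 on the log2 scale. Each had a 2-sided exact permutation p of 0.1, the smallest that 3 pools against 3 allow, and 0.3 after Benjamini-Hochberg adjustment over the 6 ratios. The design could not bring these ratios under 0.05. Without amiodarone pool 1, the lowest in the Col5a1 to Col5a2 ratio, that ratio differed by -0.71.

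In the other ratios the groups overlapped. Col5a1 to Col5a3 differed by 0.40 (exact permutation p = 0.2), Col6a1 to Col6a2 by 0.19 (exact p = 0.8), Col6a3 to Col6a1 by -0.11 (exact p = 0.5) and Col3a1 to Col1a1 by -0.18 (exact p = 0.3). After normexp 3 of these turned in direction, with Col5a1 to Col5a3 at -0.29 (exact p = 0.2), Col6a1 to Col6a2 at -0.23 (exact p = 0.4) and Col6a3 to Col6a1 at 0.38 (exact p = 0.1). The ratio of the type I chains was taken from the brightest probes, with differences of -2.13 for Col1a1 and -1.45 for Col1a2. The other probes lay closer together, at -1.93 and -1.89 for Col1a1 and -1.74 for Col1a2. The unequal fall of the type I chains thus depends on the probes compared.

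**Figure D4:**
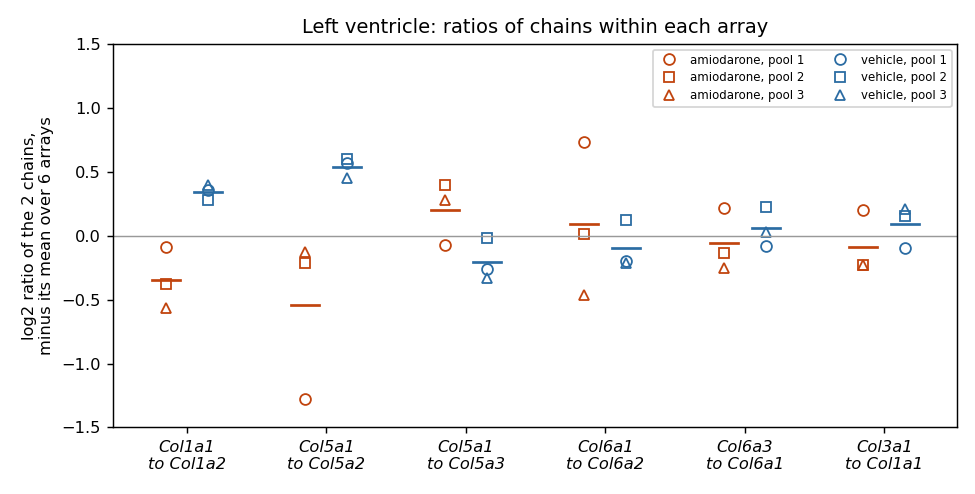
Log2 ratio of pairs of collagen chains within each heart array, minus the mean over the 6 arrays (vertical axis), in the 3 amiodarone pools (left of each pair) and the 3 vehicle pools, with lines at the group means. Col1a1 to Col1a2 and Col5a1 to Col5a2 do not overlap between groups, and the other 4 ratios do.

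Other genes of the collagen pathway were read from lists by role. Over all 17467 tested features 4.23% fell and 4.33% rose, and each list count stands against these shares. Of 18 tested genes of collagen modification and folding, 2 fell and 0 rose, with a median difference of -0.17. Serpinh1, the collagen-specific chaperone HSP47, had levels of 3.95, 3.49 and 3.75 in amiodarone pools and 4.85, 5.25 and 5.25 in vehicle pools, and fell by 1.39 (SE 0.18, adjusted p = 0.00566). P3h4, a partner of the enzymes that hydroxylate collagen lysines, fell by 0.90 (SE 0.21, adjusted p = 0.0404). The main prolyl 4-hydroxylase subunits, which let the triple helix form, did not pass: P4ha1 differed by -0.47 (adjusted p = 0.258) and P4hb by -0.13 (adjusted p = 0.576).

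Of 10 tested genes of procollagen processing and fibril assembly, 3 fell and 0 rose, with a median of -0.47. Pcolce, which speeds the removal of the carboxyl propeptide, had levels of 2.54, 2.66 and 2.87 in amiodarone pools and 3.69, 3.87 and 3.69 in vehicle pools, and fell by 1.06 (SE 0.15, adjusted p = 0.00689). Sparc, a collagen-binding matrix protein, fell by 0.88 (SE 0.15, adjusted p = 0.0129) and the fibril-binding proteoglycan Lum by 1.14 (SE 0.23, adjusted p = 0.0266). Bmp1, the propeptide protease, differed by -0.52 (adjusted p = 0.0714) and Lox, which crosslinks collagen, by -0.22 (adjusted p = 0.461). Neither of these passed.

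Among other fibrillar and fibril-associated collagens, 0 of 4 tested genes passed, with a median of -0.25. Col16a1, a fibril-associated collagen, differed by -0.47 (adjusted p = 0.0902). None of 4 tested collagen receptors and uptake genes passed either, and their median was -0.15. Of 9 tested genes of collagen breakdown, 2 fell and 1 rose, with a median of -0.28. Fap, a protease of activated fibroblasts, fell by 0.98 (SE 0.15, adjusted p = 0.0100), and the metalloprotease inhibitor Timp1 fell by 0.56 (SE 0.13, adjusted p = 0.0420). The lysosomal protease Ctsl had levels of 7.33, 6.99 and 6.95 in amiodarone pools and 5.85, 6.17 and 6.12 in vehicle pools, and rose by 1.04 (SE 0.17, adjusted p = 0.0116). The gelatinase Mmp2 differed by -0.32 (adjusted p = 0.216).

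Of 12 tested fibroblast markers, 4 fell and 1 rose, against 4.23% of all features that fell and 4.33% that rose. Their median was -0.41. The 4 were Islr at -0.95 (adjusted p = 0.00934), Dpt at -0.89 (adjusted p = 0.0204), Lum, which the assembly list also holds, and Vim at -0.94 (adjusted p = 0.0273). Gsn rose by 0.60 (adjusted p = 0.0458). The 7 others did not pass. Pdgfra differed by 0.46 (adjusted p = 0.221), Dcn by 0.39, Tcf21 by -0.08 (adjusted p = 0.845) and Wt1 by -0.23. Fbln1 differed by -0.34, Ddr2 by -0.48 and Mfap5 by -0.59. Summed levels, here and below, weight each gene by the brightness of its probe, and probes differ in how strongly they bind. The summed level of the list, on the linear scale relative to the 75th percentile, was 576 to 665 in amiodarone pools and 436 to 509 in vehicle pools. Gsn alone made up 65.3% to 80.7% of that sum, and the other markers summed to 120 to 159 in amiodarone pools and 137 to 177 in vehicle pools. Of 4 tested markers of activated fibroblasts, 3 fell and 0 rose, and their summed level was 1.33 to 2.30 in amiodarone pools and 3.47 to 7.65 in vehicle pools. One of the 3 was Fap, which the breakdown list also holds. Cthrc1 was at least 2.44-fold lower, since none of the amiodarone arrays measured it well above background. It passed the filter through the vehicle pools only, so it could hardly have been called higher. Its adjusted p of 0.00309 comes from the fit on those dim amiodarone signals, not from the bound. Cilp fell by 1.73 (SE 0.36, adjusted p = 0.0291). Postn, Acta2, Comp, Tnc and Ltbp2 were not tested.

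Some markers of other cells also differed between the groups, and their part in the collagen result was not tested. Over all features 4.23% fell and 4.33% rose, so 1 call in a list of 10 or 13 is close to these shares. Of 12 tested red cell markers 7 fell and 0 rose, and the summed level was 20.3 to 22.6 in amiodarone pools and 71.2 to 102 in vehicle pools. Among those that fell, Add2 and Epb42 were well above background on 0 amiodarone arrays and Klf1 on 2. They passed the filter through the vehicle pools only. Of 13 tested cell cycle genes 11 fell and 0 rose, with a summed level of 4.43 to 6.25 in amiodarone pools and 10.5 to 11.6 in vehicle pools. Melk, Ccnb2, Ttk, Bub1b, Ccna2 and Top2a were well above background on 0 amiodarone arrays and Birc5 on 1. These genes also passed the filter through the vehicle pools only, so they could hardly have been called higher. The sums include their readings near background. Of 8 tested macrophage markers 3 rose and 0 fell, with a summed level of 66.2 to 85.2 in amiodarone pools and 36.5 to 52.6 in vehicle pools. Of 6 tested white cell markers 2 rose and 0 fell (summed level 3.18 to 4.52 in amiodarone pools and 2.75 to 3.47 in vehicle pools). Cardiomyocyte markers were abundant in both groups, and 1 of 13 rose and 0 fell, with a median of -5.2e-05 (summed level 11149 to 12272 in amiodarone pools and 9061 to 12518 in vehicle pools). Of 10 endothelial markers 1 fell and 0 rose, with a summed level of 155 to 184 in amiodarone pools and 156 to 171 in vehicle pools. Of 7 tested smooth muscle and pericyte markers 2 fell and 0 rose, with a median of -0.45 and a summed level of 428 to 475 in amiodarone pools and 401 to 441 in vehicle pools. Des, which cardiomyocytes also express, made up 86.8% to 90.6% of that sum, and the others summed to 40.2 to 47.2 in amiodarone pools and 53.0 to 56.0 in vehicle pools.

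The 6 genes whose heart profile was most like the mean of the 10 collagens were Tac3, Igsf10, C1qtnf6, Mefv, Loxl1 and Col15a1. Likeness was Pearson's r over the 6 heart arrays among 1365 features with an SD of at least 0.5 log2, and r was 0.994 to 0.997 for the other 5 genes. The r of Tac3, 0.998, rests on amiodarone signals that were not well above background, and Tac3 passed the filter through the vehicle pools only. Loxl1, a lysyl oxidase family enzyme, had levels of 2.26, 2.04 and 2.35 in amiodarone pools and 4.36, 4.60 and 4.47 in vehicle pools. Col15a1, a collagen of the basement membrane zone, had 2.28, 2.25 and 2.09 in amiodarone pools and 3.91, 4.18 and 4.02 in vehicle pools. Igsf10 differed by -1.82 and C1qtnf6 by -1.64, and Mefv, which encodes the inflammasome protein pyrin, had levels of 0.22, 0.20 and 0.26 in amiodarone pools and 1.12, 1.25 and 1.32 in vehicle pools. Tac3, a tachykinin precursor, was at least 2.87-fold lower, since none of the amiodarone arrays measured it well above background. The profiles share the difference between groups, so r is given with no p.

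Because the collagens moved together, their promoters were read from RefSeq (rat build GRCr8, from 250 bases before to 50 after each gene's start), where 7 of the 10 genes matched. Col1a1, Col3a1 and Col6a2 had no entry in the table. Searched on both strands were the CCAAT box, the TATAA core of the TATA box, the GC box GGGCGG and the AP-1 core TGANTCA. The 250 bases before the start are printed for the genes that held CCAAT, with CCAAT, which reads as ATTGG on the other strand, and TATAA in capitals.
Col1a2, chr4:33518307-33518556, plus strand: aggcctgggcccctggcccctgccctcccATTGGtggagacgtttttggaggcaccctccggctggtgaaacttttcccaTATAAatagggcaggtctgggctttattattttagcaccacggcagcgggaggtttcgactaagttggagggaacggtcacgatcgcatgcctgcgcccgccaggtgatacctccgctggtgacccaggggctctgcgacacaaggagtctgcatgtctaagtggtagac
Col5a3, chr8:27625949-27626198, minus strand: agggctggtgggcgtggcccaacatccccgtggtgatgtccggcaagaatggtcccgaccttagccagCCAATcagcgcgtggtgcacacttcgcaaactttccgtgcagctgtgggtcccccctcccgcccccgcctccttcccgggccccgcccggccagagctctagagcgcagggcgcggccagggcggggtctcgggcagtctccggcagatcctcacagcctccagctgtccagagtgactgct
CCAAT was present in 2 of the 7 windows, against 37.5% of 33469 promoters of 300 bases. TATAA was present in 1 (Col1a2), against 26.2%, and GGGCGG in 3 (Col5a1, Col5a3 and Col8a1), against 33.1%. The TATAA of Col1a2 began 170 bases before the annotated start, and whether it acts as a TATA box was not tested. The AP-1 core was present in 1 (Col6a1), against 7.33%. The windows of Col5a2 and Col6a3 held none of these letters. No motif was common to the 7 windows, and a match or its absence describes these windows only.

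Whole blood served as a tissue where these collagens are mostly low. Only 5 of the 15 probes, of Col1a1, Col1a2 and Col6a2, were well above background on all 6 blood arrays. Col5a3 was well above background on 2 of 3 amiodarone and 1 of 3 vehicle blood arrays, and the remaining 9 probes on none. All 3 tested genes were called lower after amiodarone, against 27.1% of 15668 features that fell, 40.3% that rose and 67.4% called in both directions. Their median difference was -1.46, against 0.44 over all features.

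Of the 3 Col1a1 probes, 2 read clear signal in blood, while the brightest heart probe was not well above background on any blood array. The second probe printed above had levels of 2.80, 3.04 and 2.80 in amiodarone blood pools and 4.06, 4.33 and 4.15 in vehicle blood pools, a difference of -1.30 (SE 0.18, adjusted p = 0.00129). The first probe printed above read 1.53, 1.94 and 1.40 in amiodarone pools and 3.18, 3.37 and 2.92 in vehicle pools (-1.53, adjusted p = 0.00158 in the fit by probe, where 66.0% of 18121 probes were called and 25.4% were lower). The groups did not overlap on either probe, as for 28.9% of features in this direction. The brightest heart probe gave deposited signals of 2.83, 2.11 and 2.52 in amiodarone blood and 2.54, 2.41 and 2.41 in vehicle blood, so the probes of this gene disagree about blood.

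The Col1a2 probe at chr4:29425301-29425360 had blood levels of 0.81, 1.29 and 1.16 in amiodarone pools and 3.01, 3.02 and 2.93 in vehicle pools, a difference of -1.90 (SE 0.19, adjusted p = 0.000924). The other Col1a2 probe read -1.35, -0.83 and -0.80 in amiodarone pools and -0.33, -0.46 and 0.41 in vehicle pools (-0.87, adjusted p = 0.0301 in the fit by probe). Col6a2 read -0.69, -0.43 and -2.01 in amiodarone pools and 0.91, 0.80 and -0.46 in vehicle pools, and differed by -1.46 (SE 0.51, adjusted p = 0.0364). Pool 3 was the lowest of each group for Col6a2, and its groups overlapped, whereas those of Col1a2 did not. The Col6a2 call was lost without amiodarone pool 1 or 3 or vehicle pool 1 or 2 (adjusted p = 0.0571 to 0.10).

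The blood direction rests on the scaling. The deposited signals of the second Col1a1 probe were 610, 468 and 535 in amiodarone blood, against 438, 421 and 443 in vehicle blood, so before scaling the amiodarone pools were the higher ones. With no scaling the differences were 0.30 for Col1a1 (adjusted p = 0.426), -0.30 for Col1a2 (adjusted p = 0.430) and 0.14 for Col6a2 (adjusted p = 0.779), while the median of all features stood at 2.04. After normexp, Col1a2 alone passed (-1.20, adjusted p = 0.0249), with Col1a1 at -1.05 (adjusted p = 0.0609) and Col6a2 at -0.33 (adjusted p = 0.217). Higher features made up 59.7% of the blood calls, and 69.5% with scaling by the array median, 97.5% without scaling, 47.2% in the authors' value table and 19.1% after normexp.

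Blood cell markers also differed between the groups, and their part in the blood result was not tested. Over all 15668 blood features 27.1% fell and 40.3% rose, with a median of 0.44 (2.04 on unscaled signals). Of 13 red cell markers 11 fell and 0 rose, and the median difference was -2.27 (-0.67 on unscaled signals). Their summed level was 2974 to 5566 in amiodarone blood and 12301 to 20572 in vehicle blood. Of 11 white cell markers 6 rose and 1 fell. Their median difference was 0.79 (2.39 on unscaled signals), not far above the median of all features. Their summed level was 407 to 542 in amiodarone blood and 187 to 266 in vehicle blood. Of 14 fibroblast markers, 9 were too dim in blood to be tested.

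**Figure D5:**
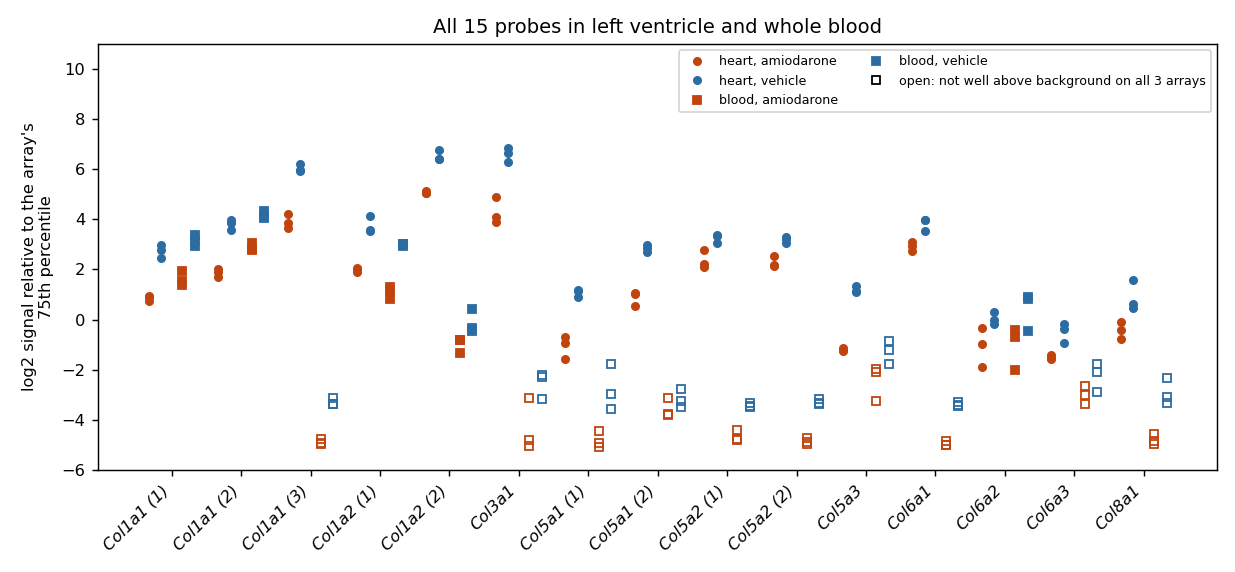
Level of each of the 15 probes (vertical axis, log2 signal relative to the array's 75th percentile) in left ventricle (circles) and whole blood (squares), with amiodarone left of vehicle in each tissue and 3 pools per group. Filled symbols are groups in which all 3 arrays were well above background, and numbers after a name count its probes along the genome. In blood, 5 probes are filled in both groups, and they belong to Col1a1, Col1a2 and Col6a2.

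The drug difference in heart was set against that in blood for the 5 probes measured in both tissues, and 49.8% of 15122 probes differed between tissues. The second Col1a1 probe differed by -1.93 in heart and -1.30 in blood, an interaction of -0.63 (SE 0.24, adjusted p = 0.0421). The call was lost after normexp (-0.82, adjusted p = 0.137) and in the authors' value table (-0.42, adjusted p = 0.194). The other 4 probes did not pass. Their interactions were -0.35 for the first Col1a1 probe (adjusted p = 0.285), -0.58 and 0.16 for the Col1a2 probes (adjusted p = 0.154 and 0.632), and 0.35 for Col6a2 (adjusted p = 0.669). The Col1a2 probe at chr4:29428206-29428265 passed after normexp (-1.29, adjusted p = 0.00757). With no scaling all 4 passed, at -2.31 for that probe (adjusted p = 3.90e-05), -2.09 for the first Col1a1 probe (adjusted p = 0.000124), -1.58 for the other Col1a2 probe (adjusted p = 0.00352) and -1.38 for Col6a2 (adjusted p = 0.0185).

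Between vehicle tissues, most of the collagens were far higher in the left ventricle than in blood, where 42.6% of 23504 probes were called higher in heart and 80.3% in both directions. Col3a1 was at least 259-fold higher in heart (adjusted p = 5.0e-09), the brightest Col1a1 probe at least 176-fold (adjusted p = 6.45e-12) and Col6a1 at least 38.0-fold (adjusted p = 2.02e-11). These are bounds, because no vehicle blood array measured the probes well above background. Each blood level was set at the higher of its own signal and the array's weakest signal well above background. The adjusted p beside an "at least" fold, here and below, comes from the fit on the dim blood signals, not from the bound. After normexp the log2 differences were 6.45 for Col3a1, 6.03 for that Col1a1 probe and 3.93 for Col6a1, smaller than these bounds. Col5a2 was at least 25.6-fold higher, Col5a1 at least 19.3-fold, Col8a1 at least 4.96-fold and Col6a3 at least 1.91-fold, although after normexp Col6a3 differed by -0.0062 (adjusted p = 0.972).

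The Col1a2 probes were 100.5-fold and 1.69-fold higher in heart (adjusted p = 3.48e-10 and 0.00392), and Col5a3, measured on 1 of 3 vehicle blood arrays, was at least 5.22-fold higher (adjusted p = 1.82e-05). The Col1a1 probes printed above differed by -0.42 and -0.38 between vehicle heart and vehicle blood (adjusted p = 0.0755 and 0.0628), and Col6a2 by -0.39 (adjusted p = 0.481). None of the 3 passed, and their direction turned with other scalings. After normexp the Col1a1 probes were called higher in heart (0.69 and 0.85, adjusted p = 0.00263 and 0.00331), and Col6a2 did not pass (-0.12, adjusted p = 0.558). Scaled by array medians, none of the 3 passed (adjusted p = 0.441 to 0.725). With quantile scaling and with no scaling all 3 were called higher in heart, but these settings do not bring heart and blood to a common level. The probes of a single gene thus gave tissue differences of very different size for Col1a1 and Col1a2.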

How the data were processed

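Total RNA was labelled with Cy3 and hybridised to 1-colour Agilent arrays, 12 in all. The deposited scanner files hold intensity values: per the file headers, Agilent Feature Extraction 9.5.1.1 subtracted background and detrended each array to give the processed signal. The deposited background and outlier flags (other values) come from the same files. The authors' value table, deposited beside them and normalized separately for heart and blood per the labels, served as an alternative, by steps that are not given here.

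Signals were moved to log2 and each array's 75th percentile was subtracted. Tested in a tissue were probes that all 3 arrays of either group measured well above background, and a symbol took its brightest passing probe. Tests used limma 3.58.1 in R 4.3.3 with Benjamini-Hochberg adjustment over all features of the tissue, at 0.05. The tissue contrasts used 1 fit over 12 arrays. Each probe counted as its own feature in an alternative fit. The code was tested on simulated data. Where no array of a group, or only some, measured a probe well above background, "at least" folds set its level at the higher of its own signal and the array's weakest measured signal. Probe names were updated through RefSeq: 16327 probes by accession, 3729 by current symbol and 1099 by synonym, 19842 kept the file's name, and 15 are the collagens. No 2 arrays were identical. The number of arrays limits the precision.

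The members and lists were chosen with earlier results of these data known. All members are described. Of the collagen pathway and fibroblast lists the text names up to 4 genes past the threshold with the smallest p. Other lists are given as counts, with called genes named where not all amiodarone heart arrays measured them well above background. Gsn, Des and the named genes that did not pass were chosen after their values were seen, except that all tested fibroblast markers are named. Alternatives covered normexp with an offset of 50, other scalings, filters, blocks and left-out pools.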

Additional observations from a re-analysis of the deposited data

Results flagged for a closer look

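The second Col1a1 probe (chr10:83637956-83638015) was marked because its drug difference was larger in heart than in blood by a test of the difference itself. The interaction, heart minus blood, was -0.63 on the log2 scale (adjusted p = 0.0421), a test that 49.8% of 15122 probes passed. The call was lost after normexp (adjusted p = 0.137) and in the authors' value table (adjusted p = 0.194). On scaled signals every amiodarone pool lay below every vehicle pool, as for 13.7% of features in heart and 28.9% in blood. Before scaling the blood order was the reverse, with signals of 610, 468 and 535 in amiodarone pools against 438, 421 and 443 in vehicle pools. The first Col1a1 probe gave -0.35 (adjusted p = 0.285), so the gene's probes differ on whether the threshold was passed.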

How the results depend on the processing

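Under the alternatives run, all 10 heart genes stayed lower. The median of the 10 was -1.21 after normexp and -1.23 to -1.53 without single pools. Features called in heart numbered 1496, against 735 with no scaling, 292 with no filter, 269 on the first slide and 525 to 1385 without single pools. Genes called lower in heart numbered 9, against 5 with no filter, 5 on the first slide and 5 to 8 without single pools (5 without amiodarone pool 2 or vehicle pool 2 or 3). With the pool number as a replicate block, 6 genes and 696 features were called in heart, and 3 genes and 10720 features in blood. The labels tie no pool of one group to a pool of the other, and the deviations of same-numbered pools correlated at r = -0.17, -0.24 and 0.32 in heart and 0.085, 0.17 and 0.31 in blood, so the numbers were not taken as pairs. Col5a2 was not called with median scaling (adjusted p = 0.0632), no scaling (0.0840), no filter (0.199), the first slide (0.250) or the replicate block (0.106). Col6a1 was not called with no scaling (0.0725), no filter (0.144) or the first slide (0.138). Col6a3 was not called with no filter (0.146), the first slide (0.191), the replicate block (0.0728) or all 12 arrays in 1 fit (0.0629). Col8a1 was not called with quantile scaling (0.0531), median scaling (0.0584), the authors' table (0.0592), no filter (0.201), the fit by probe (0.0521), the first slide (0.177) or the replicate block (0.121).

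In blood, the 3 genes called became 1 after normexp, 0 with no scaling and 7 with no filter, and the 10559 features became 1422 after normexp and 24675 with no filter. Genes added without the filter were not well above background on all 3 arrays of either group. In that setting the median of all features was -1.08, and 18225 of the calls were lower and 6450 higher. The median of the 3 genes was -1.05 after normexp, 0.14 with no scaling, and -1.90 to -1.26 without single pools. With no scaling Col1a1 stood at 0.30 and Col6a2 at 0.14. The interaction of the Col1a2 probe at chr4:29425301-29425360 was -0.48 after normexp, -0.047 when scaled by array medians and -1.58 unscaled, and that of Col6a2 was -0.35 after normexp and -1.38 with no scaling. Quantile scaling ran within each tissue and the authors' table was normalized separately for heart and blood, so neither brings them to a common level. Unscaled signals do not either. Between vehicle heart and vehicle blood, the second Col1a1 probe stood at 0.85 after normexp, 1.33 with quantile scaling, 0.18 when scaled by array medians, 2.18 unscaled and 1.2 in the authors' table. The first Col1a1 probe stood at 0.69, 1.28, 0.15 and 2.14 under the first 4 of these. Col6a2 stood at 1.28 with quantile scaling, 0.17 when scaled by array medians, 2.17 unscaled and 1.15 in the authors' table, and Col6a3 at -0.0062 after normexp. The cause of these changes was not tested. Dim signal limits the blood values, and 10 of 15 probes were not well above background on every blood array.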
